A study of Mus musculus with 2 samples.

Results

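Intergenic transcript loci are stretches of the mouse genome with long-read transcript models that belong to no annotated gene, here in hippocampus of male mice. Their members were all models of the class intergenic in the deposited tables of both libraries, placed by the matching annotation. Models on the same chromosome and strand whose spans overlapped by at least 1 base were merged into a locus. This gave 7392 loci from 4030 models of 122655 in replicate 1 and 4703 of 116024 in replicate 2. None of the models lay on an ERCC spike-in contig. The tissue, labelled a layer of hippocampus, came from 14-day-old B6CASTF1/J animals, a cross of C57BL/6J with CAST/EiJ. The 2 libraries form a single group with no treatment, and each was made from 2 µg of RNA pooled from 3 males, with ERCC and SIRV spike-ins. Labels of the samples name different animals for the 2 replicates while the experiment's description gives the same animals for both, and the spread between them may therefore be technical.

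RNA from outside annotated genes can come from several sources. RNA polymerase II can run past the polyadenylation site of a gene, many promoters fire in both directions, and enhancers and unannotated non-coding genes are transcribed too. Long reads can span a whole cDNA, so the position and splicing of such a molecule can be read along a single read. The strand of single-exon models is that of the deposited annotation. Whether each cDNA was complete was not examined.

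Marker genes of the tissue were present in both libraries, with Snap25, a synaptic vesicle fusion protein, at 1372 CPM and 1074 CPM (reads per 1000000 mouse reads, replicates 1 and 2) and Slc17a7, the vesicular glutamate transporter of excitatory neurons, at 1345 and 1218 CPM. The liver genes Alb and Apob had 0 reads in both libraries, which allows up to 3.65 CPM in replicate 1 and 4.03 CPM in replicate 2. The skeletal muscle gene Acta1 had 4 and 7 reads, and Ckm had 0 and 1.

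One set of loci had its deposited 5′ end at or near the start of an annotated gene on the opposite strand. The windows below run from 250 bases before to 50 bases after the annotated RefSeq start (GRCm38.p6) and are shown because the 5′ end of a locus lies in or beside them. Capitals mark the letters GGGCGG or CCGCCC, the GC box on either strand. Spin1, which encodes a reader of methylated histone H3, lies at chr13:51100630-51100929 on the plus strand, with 3 GC boxes and 51 CpG dinucleotides. Tbc1d22a, of the family of Rab GTPase-activating proteins, lies at chr15:86214209-86214508 on the plus strand, with no GC box and 33 CpG. Klhl34, a gene of the Kelch-like family, lies at chrX:157818185-157818484 on the plus strand, with no GC box and 8 CpG. 1700113A16Rik lies at chr3:88177736-88178035 on the minus strand, with 2 GC boxes and 28 CpG. Yif1b, a membrane protein of the early secretory pathway, lies at chr7:29237344-29237643 on the plus strand, with no GC box and 4 CpG.
Spin1: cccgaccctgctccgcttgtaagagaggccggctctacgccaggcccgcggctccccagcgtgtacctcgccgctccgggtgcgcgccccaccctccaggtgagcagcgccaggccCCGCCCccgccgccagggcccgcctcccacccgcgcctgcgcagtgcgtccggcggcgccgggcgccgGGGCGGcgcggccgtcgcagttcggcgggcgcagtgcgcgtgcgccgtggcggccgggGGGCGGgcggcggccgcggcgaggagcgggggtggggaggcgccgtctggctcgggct
Tbc1d22a: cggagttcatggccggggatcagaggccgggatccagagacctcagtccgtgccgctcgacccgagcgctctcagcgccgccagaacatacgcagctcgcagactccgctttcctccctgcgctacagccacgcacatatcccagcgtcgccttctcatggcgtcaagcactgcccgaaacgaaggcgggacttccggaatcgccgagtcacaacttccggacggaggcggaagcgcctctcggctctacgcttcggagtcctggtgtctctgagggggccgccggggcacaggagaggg
Klhl34: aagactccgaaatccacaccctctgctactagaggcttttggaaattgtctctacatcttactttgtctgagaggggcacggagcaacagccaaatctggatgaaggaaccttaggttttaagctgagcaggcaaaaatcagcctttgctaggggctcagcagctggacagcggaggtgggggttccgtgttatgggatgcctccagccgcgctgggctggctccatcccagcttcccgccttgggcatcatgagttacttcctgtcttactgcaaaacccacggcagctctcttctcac
1700113A16Rik: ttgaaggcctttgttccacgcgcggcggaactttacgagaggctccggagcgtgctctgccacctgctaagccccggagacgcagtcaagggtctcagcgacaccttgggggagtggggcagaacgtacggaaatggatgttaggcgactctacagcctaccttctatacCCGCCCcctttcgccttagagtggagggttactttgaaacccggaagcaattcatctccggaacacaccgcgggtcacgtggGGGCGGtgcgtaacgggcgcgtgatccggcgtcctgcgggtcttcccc
Yif1b: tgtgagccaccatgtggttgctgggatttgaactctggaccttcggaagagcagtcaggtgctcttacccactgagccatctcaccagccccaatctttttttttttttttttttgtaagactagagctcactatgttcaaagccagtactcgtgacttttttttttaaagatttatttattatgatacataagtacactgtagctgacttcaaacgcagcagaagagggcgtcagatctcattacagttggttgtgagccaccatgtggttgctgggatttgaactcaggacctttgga

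The locus opposite Spin1, at chr13:51097739-51100880, had 8 reads in replicate 1 and 4 in replicate 2. Its 5′ end was the same base as the annotated start of Spin1 on the other strand, and it also lay 153 bases from the same-strand RefSeq start of 9430083A17Rik. The locus opposite Tbc1d22a, at chr15:86212657-86214459, had 16 and 9 reads and also started on the base of the annotated start. So did the locus opposite Klhl34, at chrX:157815288-157818435, with 8 reads in each library, and the locus opposite 1700113A16Rik, at chr3:88177785-88178818, with 6 and 6 reads. The locus opposite Yif1b, at chr7:29237198-29237686, had 6 and 6 reads and started 92 bases from the annotated start.

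Of 7118 loci on chromosomes where RefSeq strands were known, 242 (3.40%) had their 5′ end within 500 bases of an opposite-strand RefSeq start. In 75 of the 242 (31.0%) the locus began on the very base of that start. All 75 were among the loci that share 1 base with a GENCODE gene, as were 213 of the 242. Whether the authors' transcript caller sets model ends at gene boundaries is not stated, so an exactly shared base may not be a measured start. The 242 loci held 484 reads, and 45 were seen in both libraries. Their promoter windows had a median of 23.5 CpG, against 7 in all 32851 RefSeq windows. For protein-coding genes with reads in these libraries the medians were 25 in 197 windows and 19 in 14652. A GC box was present in 64.9% of the 242 windows and in 35.7% of all windows. Among the protein-coding genes with reads the shares were 73.1% and 59.9%, so both differences were smaller when expressed genes were compared. The motif CCGGAAG, searched on both strands, was in 25.4% of those 197 windows and 15.2% of the 14652, and TATAAA in 7.11% and 7.62%. These are matches of letters, and GC boxes and CpG overlap. Within 500 bases of a same-strand RefSeq start began 117 loci (1.64% of the 7118), of which 68 were spliced and 26 were also among the 242. One of them, at chr17:10319854-10322511 with 5 reads in each library, began 65 bases from the start of Cahm, a long non-coding RNA that lies beside Qk and is named after its hypermethylation in human colorectal tumours. The Cahm window, at chr17:10319669-10319968 on the plus strand, is shown because this locus begins inside it, before the annotated start.
Cahm: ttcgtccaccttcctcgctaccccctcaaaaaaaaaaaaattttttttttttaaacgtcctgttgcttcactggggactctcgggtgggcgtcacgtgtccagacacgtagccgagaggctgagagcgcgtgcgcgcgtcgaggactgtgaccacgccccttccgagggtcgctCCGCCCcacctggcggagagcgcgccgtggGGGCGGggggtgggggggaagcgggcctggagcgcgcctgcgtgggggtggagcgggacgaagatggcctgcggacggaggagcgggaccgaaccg

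Intergenic models held 7789 of 821324 mouse reads in replicate 1, a share of 0.948% (Wilson 95% interval 0.928% to 0.970%). In replicate 2 they held 9104 of 743862 reads, or 1.22% (1.20% to 1.25%). The mean share was 1.09% ± 0.195 (SD, n = 2), and the 2 intervals did not overlap. Most models were seen once, since 77.0% of models in replicate 1 and 76.4% in replicate 2 had 1 read. Wilson intervals and the limit of 3 reads that a count of 0 allows cover counting error only, as amplified cDNA is not a set of independent molecules.

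Reads were concentrated in few loci. There were 5401 loci (73.1%) with 1 read over both libraries, and 73 loci with 20 or more reads held 25.1% of all intergenic reads. The single largest locus had 459 reads, and 498 known genes had at least as many. Both libraries contained 1291 loci (17.5%), which held 9439 of 16893 intergenic reads (55.9%). Replicate 1 alone contained 2717 and replicate 2 alone 3384. The share in both rose with reads by construction, from 44.8% of loci with 2 reads to 70 of 73 loci with 20 or more. Antisense models merged in the same way gave 24070 loci with 35.6% in both, and genomic models 16483 loci with 32.4%. At 2 reads per locus those shares were 48.5% and 38.3%, so intergenic loci lay between the other classes at equal depth. Thinned to the mouse reads of replicate 2, replicate 1 held 3713 loci, against 4675 in replicate 2.

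**Figure D1:**
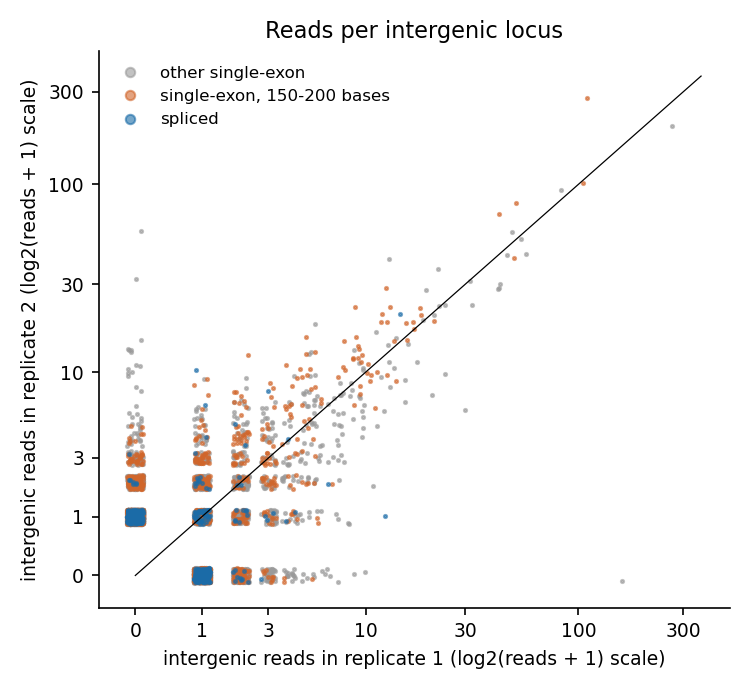
Intergenic reads of each locus in replicate 1 (x axis) and replicate 2 (y axis), on a log2(reads + 1) scale with small random offsets so that points at the same count can be told apart; colours mark single-exon loci of 150 to 200 bases, other single-exon loci and spliced loci, and the line is equality. Of 73 loci with 20 or more reads, 70 have reads in both libraries, while 1 lies on the x axis and 2 on the y axis.

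Where both libraries had exactly 1 single-exon model at a locus (1181 loci), the 3′ ends lay within 10 bases of each other in 82.7% and the 5′ ends in 63.8%. The median difference was 0 bases at the 3′ end and 1 base at the 5′ end. Loci that share 1 base with a gene were not left out, and their end at the gene may not be a measured end.

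The lengths of single-exon intergenic models had a narrow peak. In the bin from 175 to 179 bases lay 12.0% of them in replicate 1 and 12.8% in replicate 2, against 1.73% and 2.38% of single-exon antisense models. The window from 150 to 200 bases was chosen after this distribution was seen. It held 31.3% ± 2.36 (SD, n = 2) of single-exon intergenic models, 7.20% ± 1.37 of genomic, 6.09% ± 1.49 of antisense and 0.952% ± 0.118 of annotated single-exon models. In number these classes lay closer, with 1117 and 1474 such intergenic models in replicates 1 and 2. There were 828 and 1120 antisense and 669 and 884 genomic models of this length. The loci made of such models alone numbered 2018 (27.3%), with a median longest model of 176 bases. The other 4929 single-exon loci had a median of 970 bases and the 445 spliced loci 1553. The identity of the short loci with repeat families was not analysed.

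**Figure D2:**
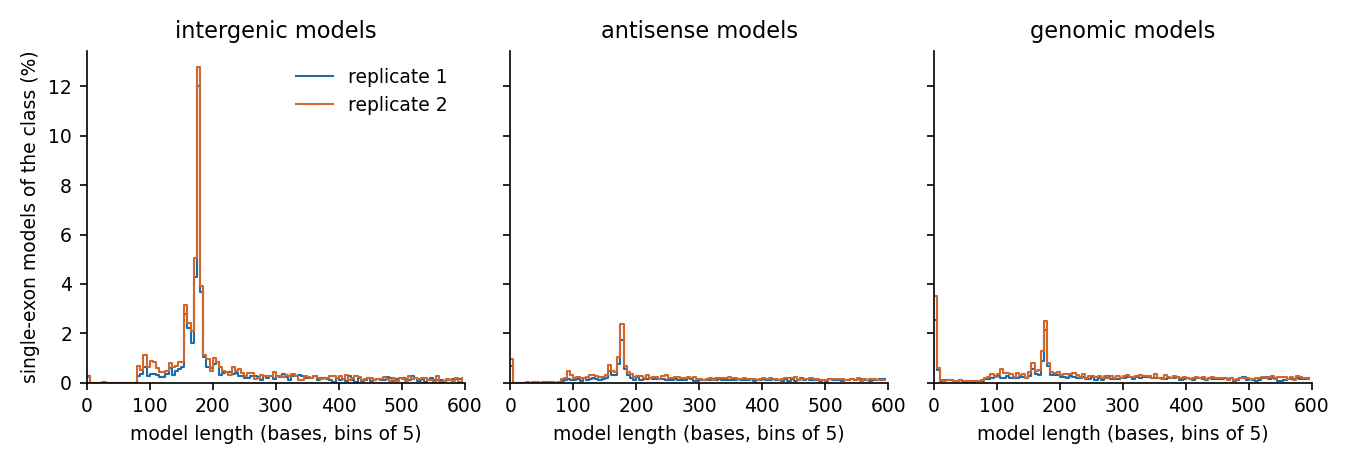
Share of single-exon models (y axis, percent of the class) by model length (x axis, bases, bins of 5 bases) for intergenic, antisense and genomic models, one line per library. The intergenic panel peaks at 175 to 179 bases with 12.0% and 12.8% of models, and the antisense panel peaks in the same bin with 1.73% and 2.38%.

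Model ends were also compared within the short loci. Among 452 short loci with 1 model per library, 99.8% of 5′ ends and 88.9% of 3′ ends lay within 10 bases of each other. Among the other 729 single-exon loci the shares were 41.4% and 78.9%, with a median difference of 144 bases at the 5′ end and 0 at the 3′ end. The short loci were chosen by model length, which limits how far apart the ends of overlapping models can lie. How much of the contrast at the 5′ end comes from this choice was not tested. Short loci also differed in level between the libraries, with 2256 and 3317 reads in replicates 1 and 2. Relative to all mouse reads that is a log2 ratio of 0.70. The other single-exon loci had 5186 and 5458 reads (log2 ratio 0.22) and the spliced loci 347 and 329 (0.07). In every bin of reads per locus the short loci had a log2 ratio between 0.44 and 0.90. Short single-exon models of other classes moved with them, from 1800 to 2797 reads in antisense models (log2 ratio 0.78) and from 1966 to 2935 in genomic models (0.72). Model lengths shifted in the same direction, as the median intergenic model was 611 bases in replicate 1 and 310 in replicate 2, the median single-exon antisense model 1722 and 1544 and the median single-exon genomic model 1449.5 and 1103. The median over all genes and loci tested between the libraries was 0.01. The part of these lengths in the higher reads of short models in replicate 2 was not tested, and in bulk tissue fewer cells of a type and less RNA per cell cannot be told apart.

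A locus was classed by its nearest GENCODE M21 gene within 10000 bases. Downstream loci lie past the 3′ end of a gene on its own strand, upstream loci before its 5′ end on the same strand, divergent loci before the 5′ end on the opposite strand and convergent loci past the 3′ end on the opposite strand. Isolated loci have no gene within 10000 bases. Against the class name, 860 loci (11.6%) shared 1 base with a gene, the base at which the gene ends or begins. Of these, 386 were on the strand of the gene and 474 on the other. Results with and without them are given in the closing section.

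Isolated loci were the most numerous at 2521 (34.1%), followed by 1216 convergent (16.5%), 1049 downstream (14.2%), 930 upstream (12.6%) and 810 divergent (11.0%). By library the isolated share was 30.2% and 34.2%, a mean of 32.2% ± 2.81 (SD, n = 2). Loci in both libraries were least frequent among isolated loci, at 11.3%, against 23.3% of convergent and 25.9% of abutting same-strand loci. This share rises with reads per locus, and position classes were not compared at equal depth. Isolated loci held 26.2% ± 3.80 of intergenic reads and convergent loci 19.4% ± 0.308. Spliced loci made up 8.45% of isolated loci and between 2.85% and 9.49% of each class beside a gene. Short loci made up 39.1% of divergent loci and 1.90% of loci abutting a gene on the opposite strand.

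The median distance from a locus to the nearest gene boundary was 4539.5 bases, with quartiles of 1228 and 16225 and a largest value of 455514. Loci in both libraries had a median of 2732 bases and loci with 20 or more reads 2206.5. Apart from abutting loci, 10 loci lay fewer than 300 bases from a gene and 760 lay at 300 to under 1000 bases. Excluding the abutting loci, 34.7% of 6514 loci lay within 10000 bases of a nearest 3′ end and 26.7% of a nearest 5′ end. Of the gap bases between genes, 16.7% and 16.3% lay in these positions. Isolated loci made up 38.6% of the 6514, while isolated positions made up 67.1% of the gap bases. Short loci were spread more evenly, with 29.7% at 3′ ends and 31.6% at 5′ ends.

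**Figure D3:**
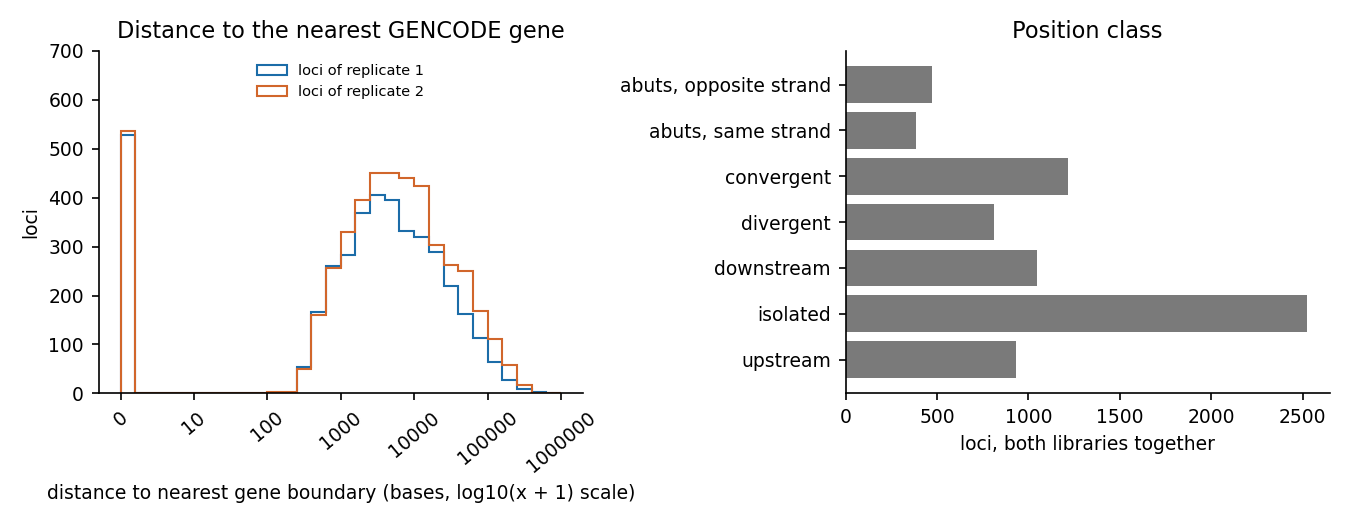
Left, number of loci (y axis) by distance to the nearest gene boundary (x axis, bases, log10(x + 1) scale), one line per library, where the bar at 0 holds the loci that share 1 base with a gene. Right, number of loci of both libraries in each position class; the isolated class is the largest with 2521 loci, and the near-empty stretch at left is the 10 non-abutting loci under 300 bases.

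Protein-coding neighbours of the loci had reads more often than protein-coding genes at large. Over genes of every type, 55.5% of 6027 nearest genes had reads. Of 22028 protein-coding genes in GENCODE M21, 67.1% had reads, with a median of 4.58 CPM over all. Among protein-coding genes nearest to a downstream locus 86.6% of 634 had reads (median 20.3 CPM), nearest to a convergent locus 90.6% of 778 (21.8 CPM) and nearest to an isolated locus 82.2% of 763 (11.5 CPM). The polyadenylation hexamers AATAAA or ATTAAA were present in the last 50 bases of 71.9% of 21951 protein-coding genes. They were present in 65.3% of 495 genes with a downstream locus under 5000 bases away and in 66.7% of 204 genes whose end a same-strand locus touched, but in 75.0% of 108 genes whose end a convergent locus touched. The hexamer shares were not compared with those of protein-coding genes with reads alone.

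RefSeq, a second catalogue, covered part of the loci. Its strand was known here for 54.1% of its genes and for no pseudogene, so these shares are minimum values. Of 7118 loci assessed, 612 (8.60%) overlapped a same-strand RefSeq gene by more than 1 base, of which 300 overlapped protein-coding genes and 312 long non-coding RNA genes. In 198 of the 300 the RefSeq gene was the nearest GENCODE gene, which RefSeq gives a longer span. The share was 30.7% of spliced loci, 12.6% of downstream loci, 6.98% of isolated loci and 3.70% of short loci.

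The largest locus lay at chr4:133096256-133101551 on the plus strand, with 272 and 187 reads in replicates 1 and 2, or 291 CPM ± 56.4 (SD, n = 2). Its models were 5254 and 5293 bases long with a single exon. It lay 7110 bases downstream of the lincRNA gene Gm26615, which had 0 reads in both libraries, and 18146 bases downstream of Ahdc1, an AT-hook protein gene. Of the listed long non-coding RNAs of brain that matched GENCODE M21 by name, Meg3 had more reads (362 and 265), and the others had fewer, from 108 and 83 for Snhg11 down to 4 and 2 for Rmst and 4 and 0 for Kcnq1ot1. The median lincRNA gene with reads had 2. A read here stands for 1 cDNA, so these counts carry no correction for length.

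Downstream of Cplx2, the gene of complexin 2, which regulates synaptic vesicle fusion, a locus at chr13:54385848-54388478 on the plus strand had 49 and 61 reads (70.8 CPM ± 15.8). It began 1931 bases past the gene, which had 235 and 218 reads. The third downstream locus by reads, at chr12:86693599-86695685, lay 1508 bases past Vash1, a tubulin carboxypeptidase gene, with 19 and 21 reads against 5 and 1 for the gene itself. It overlapped the longer RefSeq span of Vash1.

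Convergent loci ran toward a gene from its 3′ side. Past Rpl27-ps1, a processed pseudogene with 0 reads, a locus of 184 bases at chr1:171300693-171300876 had 102 and 101 reads. Past Gid8, a subunit gene of the CTLH ubiquitin ligase, the locus at chr2:180719390-180722240 had 57 and 47 reads while the gene had 16 and 11. It overlapped Gm30455, a RefSeq long non-coding RNA gene on its own strand. Past Blcap, an RNA-edited gene imprinted in brain, the locus at chr2:157548564-157555583 had 44 and 43 reads. None of these 3 passed the test between the libraries (Fisher's exact test, Benjamini-Hochberg adjusted p = 0.935, 0.988 and 0.995).

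Upstream of Nipbl, the cohesin loader, the locus at chr15:8445287-8451187 had 44 and 30 reads against 7 and 6 for the gene. Upstream of Pltp, the phospholipid transfer protein gene, a locus of 177 and 176 bases at chr2:164866190-164866366 had 51 and 42 reads. Divergent from Spata7, a ciliary gene of photoreceptors, the locus at chr12:98620727-98621061 had 23 and 23 reads. Among loci abutting a gene on the opposite strand, the largest faced Dyrk1b, a protein kinase gene, at chr7:28187294-28188668 with 90 and 91 reads, while Dyrk1b had 20 and 15.

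Other loci that led their class lay beside little-characterised genes. The isolated locus at chr1:132824795-132824985, 10447 bases from the snoRNA gene Gm22609, had 53 and 84 reads and did not pass the test between the libraries (Fisher's exact test, adjusted p = 0.0789). On the same strand, the locus abutting Gm42517, which its RefSeq span overlaps, had 58 and 56 reads and the one abutting the lincRNA gene M5C1000I18Rik had 46 and 30. On the opposite strand, the locus abutting the pseudogene Gm19196 had 41 and 28 reads and the one abutting Ptges3-ps had 6 and 19. The divergent locus nearest the pseudogene Gm14387 had 20 reads in each library and overlapped the same-strand RefSeq gene Gm14393.

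**Figure D4:**
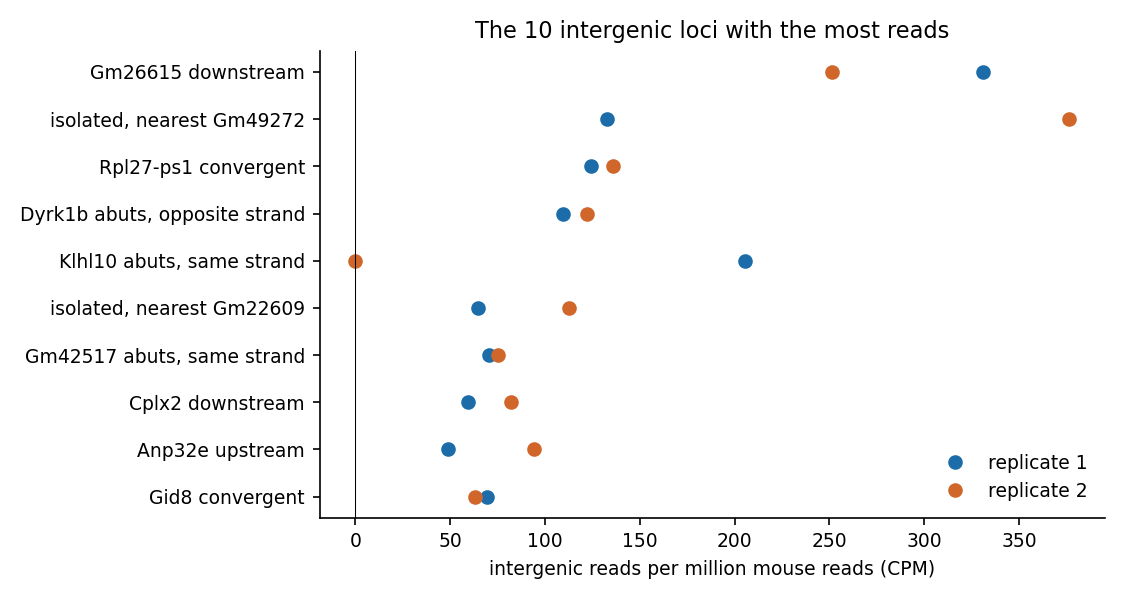
Reads per 1000000 mouse reads (x axis, CPM) of the 10 intergenic loci with the most reads, one point per library, each locus named by its nearest gene and position class (y axis). The points of most loci lie close together, while the isolated locus nearest Gm49272 (133 and 376 CPM) and the Klhl10 locus (206 and 0 CPM) lie apart.

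The isolated loci farthest from any gene were short. The 5 such loci with at least 10 reads and reads in both libraries lay between 41650 and 108348 bases from a gene, with lengths of 167 to 184 bases. The farthest, at chr12:43142565-43142738, had 5 and 9 reads. The next lay 86860 bases from Dscam, a neuronal adhesion gene, at chr16:97257612-97257788 with 10 and 9 reads.

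The libraries were compared locus by locus with Fisher's exact test, which compares these 2 libraries and not conditions. Loci and genes with at least 20 reads over both were tested together, and 1.65% of all 8948 were called at an adjusted p of 0.05 (0.793% higher and 0.861% lower in replicate 2). With a minimum of 10 reads 1.37% were called. Of 73 loci tested, 7 (9.59%) were called, 5 higher and 2 lower in replicate 2. At an unadjusted p of 0.05, 15 of the 73 loci (20.5%) passed, against 926 of all 8948 genes and loci (10.3%). The test measures departure from counting error alone. Of the 33 short loci tested, 30 had a log2 ratio above 0, with a median of 0.43 and 2 called. Of the other 40 loci, 22 were above 0, with a median of 0.10 and 5 called. Over all 8948 genes and loci tested, 4620 were above 0.

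The called locus with the most reads was the short isolated locus at chr15:103619061-103619240, with 109 and 280 reads in replicates 1 and 2 (log2 ratio 1.50, Fisher's exact test, adjusted p = 2.15e-19). The nearest gene, the lincRNA gene Gm49272, lay 30552 bases away and had 0 reads in both libraries. The short locus upstream of Anp32e, which encodes a chaperone of the histone variant H2A.Z, had 40 and 70 reads at chr3:95924915-95925089 (log2 ratio 0.94, adjusted p = 0.0474), while Anp32e itself had 56 and 58. With TMM library sizes its adjusted p was 0.0630, and with a minimum of 10 reads 0.0540. An isolated locus at chr6:64897026-64899441 had 14 and 42 reads (log2 ratio 1.69, adjusted p = 0.00507). It merged 3 models by overlap, where a model of 86 bases in replicate 1 stood beside a model of 2416 bases in replicate 2. The ratio may therefore compare unlike models. Lower in replicate 2 was a locus of 133 and 131 bases at chr12:24638003-24638135, 534 bases downstream of the processed pseudogene Gm6969. It had 31 and 6 reads (log2 ratio -2.13, Fisher's exact test, adjusted p = 0.0106). Gm6969 itself had 32 and 53 reads, the opposite direction. Reads of loci beside pseudogenes could be split with near-identical copies, and this was not tested.

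The other 3 called loci had reads in 1 library only. The locus past the 3′ end of Klhl10, a germ cell gene that serves as a ubiquitin ligase adaptor, had 169 reads in replicate 1 and 0 in replicate 2, at chr11:100457022-100461668, at least 51.0-fold higher in replicate 1. It overlapped the longer RefSeq span of Klhl10. Replicate 2 had 243 reads there that were assigned to Klhl10 as genomic models, and with reads of any class the log2 ratio was 0.67, the opposite direction. The locus at chr4:69925201-69925630, abutting the processed pseudogene Gm11223, had 0 and 58 reads, at least 21.3-fold higher in replicate 2, while Gm11223 itself had 32 and 2. The locus convergent to Cacng8, which encodes an auxiliary subunit of AMPA glutamate receptors in hippocampus, had 0 and 34 reads at chr7:3417579-3418110, at least 12.5-fold higher in replicate 2. Replicate 1 had 32 reads there in antisense models, and with reads of any class the call was lost (log2 ratio 0.23, adjusted p = 0.941). Of 14 loci with 10 or more reads in 1 library only, 9 had reads of another class in the other library. The rest all abutted a gene on the same strand. Reads of that gene sharing only 1 base with the locus were not counted, so these loci may not be absent there. Over all 6101 loci seen in 1 library, the share with reads of another class in the other library was 4.41%.

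Spliced loci numbered 445 (6.02%), of which 347 had 1 read and 4 had 10 or more. They carried 462 chains of introns, and 30 chains (6.49%) were found in both libraries with 135 of 599 spliced reads (22.5%). Of 773 introns, 46 (5.95%) were found in both. The median intron was 2533 bases long with quartiles of 624.5 and 8407.5, the longest was 160437 bases, and 8 were under 50 bases. A single intron made up 278 chains (60.2%). The sequences at the splice sites were not examined, so the chains rest on the deposited models alone. Isolated loci held 213 of the spliced loci (47.9%), against 34.1% of all loci, and the median distance of spliced loci to a gene was 9185 bases.

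The chain with the most reads lay at chr5:139485054-139512009 on the plus strand, with 15 and 20 reads. Its 2 exons, 168 bases together and so within the length range of the short loci, flanked an intron of 26788 bases. It began 505 bases from Zfand2a, an arsenite-inducible gene, on the opposite strand, and that gene had 11 and 15 reads. The chain at chr8:125959833-125964685, isolated 12393 bases from the kinase gene Map3k21, had 3 and 8 reads and an intron of 4091 bases. The chain at chr5:30223095-30229889 lay 2692 bases from Selenoi, a phospholipid synthesis gene, on the opposite strand, with 4 and 4 reads. That at chr8:72548270-72551066 faced Med26, a Mediator subunit gene, with 1 and 7 reads and an intron of 600 bases. The only one of the 10 chains with 3 exons lay at chr10:22054901-22058631, with 2 and 5 reads and introns of 2411 and 679 bases. The other 5 chains had 3 to 6 reads each over both libraries, with introns of 159 to 40604 bases.

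**Figure D5:**
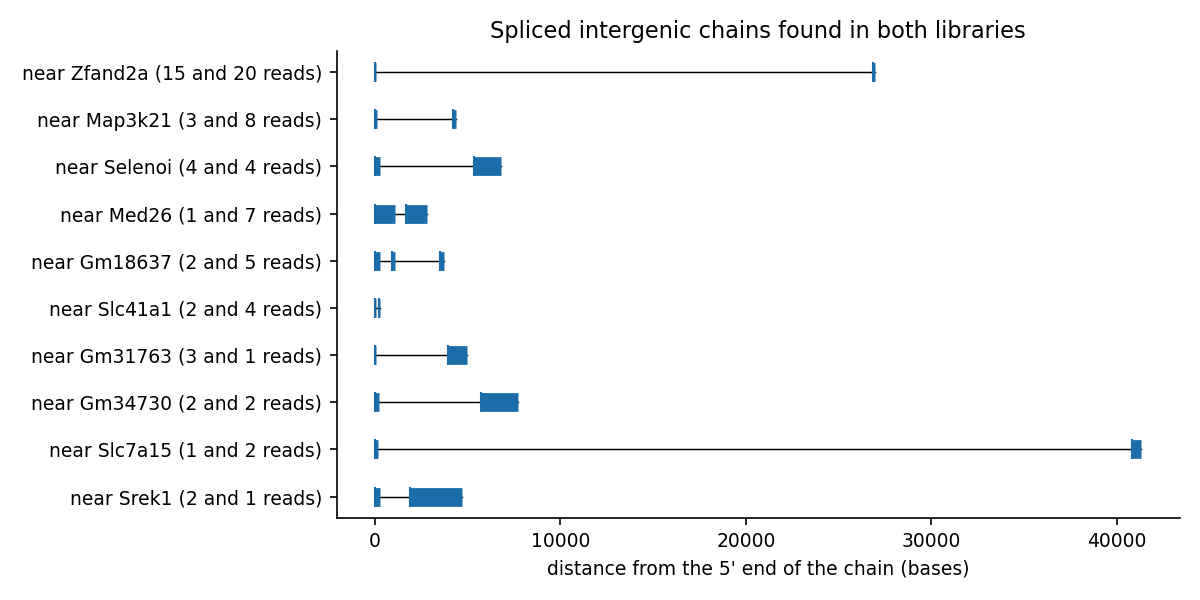
Exons (blocks) and introns (lines) of the 10 spliced intergenic chains with the most reads found in both libraries, by distance from the 5′ end of the chain (x axis, bases), with the reads in replicates 1 and 2 beside the nearest gene (y axis). The chains near Zfand2a and Slc7a15 have introns of 26788 and 40604 bases.

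Annotated lincRNA genes served as a scale for the loci. There were 847 lincRNA genes with reads, of which 41.0% were in both libraries, 58.9% were spliced and 5.43% had 20 or more reads. The corresponding shares of the loci were 17.5%, 6.02% and 0.988%. The longest model per lincRNA gene had a median of 1786 bases, and that per locus 464 bases.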

How the data were processed

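Long-read RNA sequencing of 2 libraries of a single group was analysed from the tables the authors deposited. Per the file headers, these give raw read counts per transcript model, with its class, number of exons and length in bases, and the deposited annotation gives exon positions on mm10. The authors worked on mm10 with GENCODE M21, per a deposited text file; the sources used here name neither aligner nor transcript caller. Gene positions came from GENCODE M21, because gene spans in the deposited annotation differed from it for many genes (38991 and 39061 of 55450 the same). Strands of single-exon models are those of the deposited annotation. A RefSeq strand was known for 27025 of 49997 genes (54.1%), and 274 loci were not assessed against RefSeq.

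CPM is reads per 1000000 mouse reads, of which there were 821324 and 743862. Reads on ERCC contigs were left out. SIRV reads were not filtered, so any in the deposited counts would be included in these totals. For log2 ratios, 0.5 reads were added to each count and replicate 2 was divided by replicate 1. Features with at least 20 reads entered a two-sided Fisher's exact test in scipy 1.17.1, Benjamini-Hochberg adjusted over genes and loci, after a check on simulated data. TMM sizes came from edgeR 4.0.16. Reads of any class were counted where a model overlapped the locus by more than 1 base. P-values measure only counting error between the 2 libraries.

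Loci named were the 10 with most reads, the 10 spliced chains with most reads in both libraries and the 3 with most reads per position class. Also named were up to 5 largest called ratios in each direction. The 5 isolated loci farthest from a gene were taken from those with at least 10 reads and reads in both libraries. Windows printed were chosen after their loci's values were seen. The members and lists were chosen with earlier results of these data known.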

Additional observations from a re-analysis of the deposited data

How the results depend on the processing

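The mean share of reads, 1.09%, was 0.656% without models of 1 read, 0.0383% with spliced models only and 0.726% without loci of 150 to 200 bases. Loci in both libraries, 1291, were 465 with at least 2 reads in each and 838 without the short loci; a single library held 4008 to 4675 loci. Isolated loci, 34.1%, were 47.9% with a window of 5000 bases, 21.4% with 20000, 48.3% against protein-coding genes, 26.4% per read, 22.2% among loci in both libraries and 30.2% to 34.2% in single libraries. The median distance, 4539.5 bases, was 9006 to protein-coding genes, 14215.5 to same-strand genes, 3432 per read, 2732 for loci in both, 3647 without short loci, 5916 without abutting loci and 3705 to 4673 in single libraries. Spliced loci, 445, were 54 with 2 reads on a chain, 30 with a chain in both and 232 to 259 in single libraries. Loci called between libraries, 7, were 16 of 194 tested with a minimum of 10 reads. The Klhl10 locus reversed to a log2 ratio of 0.67 with reads of any class.

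Leaving out the loci that abut a gene gave a share of 0.916%, 1086 loci in both, 389 spliced loci and 5 called. These 2 alternatives, without abutting and without short loci, were chosen after seeing the data. The cause of these shifts was not tested, beyond fewer loci or reads entering each. Leaving out a library leaves no test between libraries. At this depth 73.1% of loci rest on 1 read.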

Other observations

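Loci on contigs that are not placed on a chromosome numbered 20, with 88 reads, and 1 locus with 10 reads lay on the mitochondrial genome. One unplaced contig, Un_GL456382, held 59 of those reads in 1 locus seen in both libraries. The Y chromosome held 56 loci with 76 reads, of which 6 were in both libraries, and the X chromosome 285 loci with 533 reads, of which 50 were. In each library 11 intergenic models had a length of 1 base.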
